A study of Mus musculus with 12 samples.

Results

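The genes described here encode the nuclear subunits of oxidative phosphorylation, the 5 protein complexes of the inner mitochondrial membrane that turn NADH and succinate into ATP. They were chosen by symbol from the annotated protein-coding genes of the count table: the Ndufa, Ndufb, Ndufc, Ndufs and Ndufv genes and Ndufab1 for complex I, Sdha to Sdhd for complex II, the Uqcr genes and Cyc1 for complex III, the Cox4i, Cox5, Cox6, Cox7 and Cox8 genes for complex IV, and the Atp5 genes for complex V. Assembly factors and pseudogenes were left out. This gave 86 genes of the 47729 in the table, with 38 in complex I, 4 in complex II, 9 in complex III, 18 in complex IV and 17 in complex V. The choice used no measured value. The filter on low counts passed 84 of the 86. Cox8c had 0 counts in all 12 libraries, which allows up to 3 counts in each, and Cox7b2 had 1 count in 1 library.

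The libraries came from muscle of male mice aged 5 months on a C57BL/6 background, in 4 groups of 3: wild type kept sedentary (WT sedentary), wild type run on a treadmill (WT treadmill), and mice without NRF2 kept in the same ways (KO sedentary and KO treadmill). The labels name neither the muscle, nor the running programme, nor how the NRF2 allele was made, and they do not say that each library is a separate mouse, so the p-values measure the spread between these libraries. NRF2, encoded by Nfe2l2, is the transcription factor that binds antioxidant response elements and drives antioxidant and detoxification genes. The comparisons address whether exercise and the loss of NRF2 change muscle RNA and whether one alters the other.

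Complex I (NADH dehydrogenase) and complex II (succinate dehydrogenase) pass electrons to ubiquinone, complex III passes them to cytochrome c, complex IV (cytochrome c oxidase) passes them to oxygen, and complex V (ATP synthase) uses the proton gradient that complexes I, III and IV build. Most subunits are encoded in the nucleus and the rest in mitochondrial DNA. Skeletal muscle fibres differ widely in how much of this machinery they hold, endurance training is known to raise it, and several complex IV subunits and the c-ring of complex V have more than one gene, some of them used mainly in muscle. The nuclear promoters are known targets of nuclear respiratory factor 1 (NRF1), of the ETS-family factor GABP and of the estrogen-related receptors. GABP is also called nuclear respiratory factor 2 and is a different protein from the NRF2 that was deleted here.

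Promoter windows from the RefSeq table of build GRCm38.p6 were matched for 69 of the 86 genes, as 74 windows, and the 250 bases before the annotated start were searched on both strands. The NRF1 letters (GCGCA, then any base, then GCGC) stood in 18.9% of the 74 windows and in 5.18% of the 21263 windows of all protein-coding genes. The ETS letters CCGGAAG stood in 16.2% and in 8.98%. The antioxidant response element letters TGACNNNGC, which the deleted factor is known to bind, stood in 9.46% of the windows and in 10.4% of all. These are matches of letters and no measure of binding. In the whole 300-base windows, which were searched first, the shares were 24.3% and 6.38% for NRF1, 21.6% and 11.6% for ETS, and 13.5% and 12.98% for the response element. An E-box (CANNTG, 68.9% and 69.0%) and a MEF2 site by its name (0% and 0.489%) were searched at the same time and dropped afterwards.

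The 6 genes with the response element letters in the 250 bases before their start are shown because that element is the one the deleted factor reads. Each is printed 5′ to 3′ on the gene's strand, with the letters of the response element in capitals and, in Ndufs5, also those of the NRF1 motif.
Ndufa1 (chrX:37191239-37191488, minus strand): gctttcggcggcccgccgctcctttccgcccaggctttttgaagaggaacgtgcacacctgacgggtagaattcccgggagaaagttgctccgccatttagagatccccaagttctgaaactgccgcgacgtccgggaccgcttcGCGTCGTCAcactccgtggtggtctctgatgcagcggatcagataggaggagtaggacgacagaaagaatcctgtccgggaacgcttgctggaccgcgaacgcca
Ndufa7 (chr17:33824322-33824571, plus strand): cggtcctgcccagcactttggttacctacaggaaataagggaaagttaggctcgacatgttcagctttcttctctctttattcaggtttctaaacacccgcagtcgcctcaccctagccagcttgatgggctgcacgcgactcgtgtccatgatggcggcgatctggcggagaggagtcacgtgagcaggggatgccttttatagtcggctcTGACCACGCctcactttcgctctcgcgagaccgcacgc
Ndufa9 (chr6:126849145-126849394, minus strand): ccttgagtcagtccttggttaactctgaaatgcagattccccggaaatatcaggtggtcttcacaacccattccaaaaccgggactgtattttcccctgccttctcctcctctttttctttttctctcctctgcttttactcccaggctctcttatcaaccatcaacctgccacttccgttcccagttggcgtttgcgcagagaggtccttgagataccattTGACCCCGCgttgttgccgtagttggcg
Ndufs5 (chr4:123718187-123718436, minus strand): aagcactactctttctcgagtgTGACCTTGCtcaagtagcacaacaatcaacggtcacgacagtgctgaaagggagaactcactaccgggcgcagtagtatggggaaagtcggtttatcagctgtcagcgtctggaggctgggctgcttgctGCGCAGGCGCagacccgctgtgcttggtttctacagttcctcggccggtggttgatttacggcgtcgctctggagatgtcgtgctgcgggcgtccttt
Ndufv2 (chr17:66101560-66101809, minus strand): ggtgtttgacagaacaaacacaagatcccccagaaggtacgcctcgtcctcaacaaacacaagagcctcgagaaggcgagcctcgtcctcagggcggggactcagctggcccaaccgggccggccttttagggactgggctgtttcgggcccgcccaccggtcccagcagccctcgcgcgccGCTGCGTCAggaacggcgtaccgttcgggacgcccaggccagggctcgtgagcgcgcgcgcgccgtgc
Atp5o (chr16:91931631-91931880, minus strand): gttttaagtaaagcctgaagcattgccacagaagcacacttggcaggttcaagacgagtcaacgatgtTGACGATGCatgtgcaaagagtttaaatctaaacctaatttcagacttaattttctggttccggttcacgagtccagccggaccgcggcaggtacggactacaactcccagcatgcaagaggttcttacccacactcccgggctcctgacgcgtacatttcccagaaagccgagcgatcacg

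None of these 6 genes passed the test in any comparison. Their median log2 fold change for knockout against wild type, averaged over both exercise states, was -0.06, and the lowest adjusted p in that comparison, by edgeR's quasi-likelihood test, was 0.522. The 62 tested genes with a window but without the letters had a median of -0.03 in the same comparison, and 41 of the 62 were below 0 against 5 of the 6.

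Library totals ran from 21232040 to 29990968 counts, and the 86 genes took between 2.34% and 2.73% of them. Nfe2l2 itself had 830 to 1275 counts in the 6 wild-type libraries and 54 to 84 in the 6 knockout libraries. Markers of fast fibres summed to between 113371 and 141934 CPM (counts per 1000000 counts, after scaling), against 498 to 827 CPM for slow fibres. Myh2, the marker of fast oxidative fibres, had 518 to 1098 CPM. Of the brown adipocyte markers, Ucp1 was at 0 counts in all 12 libraries and Cidea at 3.02 CPM or less. The flow cell lane in the labels is not balanced: replicate 1 of WT sedentary was alone on lane 7 and replicate 1 of WT treadmill alone on lane 8, while the other 10 libraries were split over lanes 3 and 4. Those 2 libraries stood apart in several of the genes below, so the medians of the 84 genes and the effects that rest on them are also given without these libraries. Lane, library and mouse cannot be told apart there. Replicate 1 of KO treadmill was the lowest of the 12 libraries in 38 of the 84 genes and replicate 2 of the same group the highest in 21. Among all 14194 genes tested, 7.52% were lowest in the first of these libraries and 7.24% highest in the second. Replicate 1 of WT sedentary was lowest in 31 of the 84, where 20.0% of all genes were lowest in it.

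Levels per length, in RPKM (CPM per kilobase of merged exons), are shown by complex. The median over tested genes was 106 RPKM in complex I, 209 in complex II, 278 in complex III, 133 in complex IV and 145 in complex V. With the longest transcript as the length they were 144, 292, 299, 155 and 211 RPKM, in the same order. Within a complex the range was wide. The highest genes were Ndufa4 (572 RPKM), Sdhd (304), Uqcr10 (519), Cox8b (1107) and Atp5b (603), and the lowest were Ndufab1 (3.84), Sdhc (58.9), Uqcrc1 (34.1), Cox6b2 (0.274) and Atp5g2 (0.461). The subunits of 1 complex are assembled in fixed proportions, so such ranges do not measure protein amounts.

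A part of the low values goes with shared sequence. In 18 of the 86 genes at least 10% of the 50-base stretches of the transcripts also occur in another annotated gene. Reads from such stretches can be lost or split when they are counted. The number of genes sharing a stretch was 366 for Atp5g1 and 18 for Atp5h. The median of these 18 was 45.4 RPKM, against 156 RPKM in the 48 tested genes with no shared stretch. Of the 12 lowest tested genes, 7 were among the 18. Atp5l, the g subunit of the ATP synthase membrane part, is the extreme, with 68.5% shared and 1.17 RPKM. Long merged exons also lower a level per length. Among the 12 lowest genes, Ndufab1 had 6883 bases, Atp5l 6443, Ndufb2 5628 (0.069% shared) and Atp5g1 4912. The rest of the 12 had 2039 bases or less. The parts of shared sequence and of length in the levels were not tested.

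**Figure D1:**
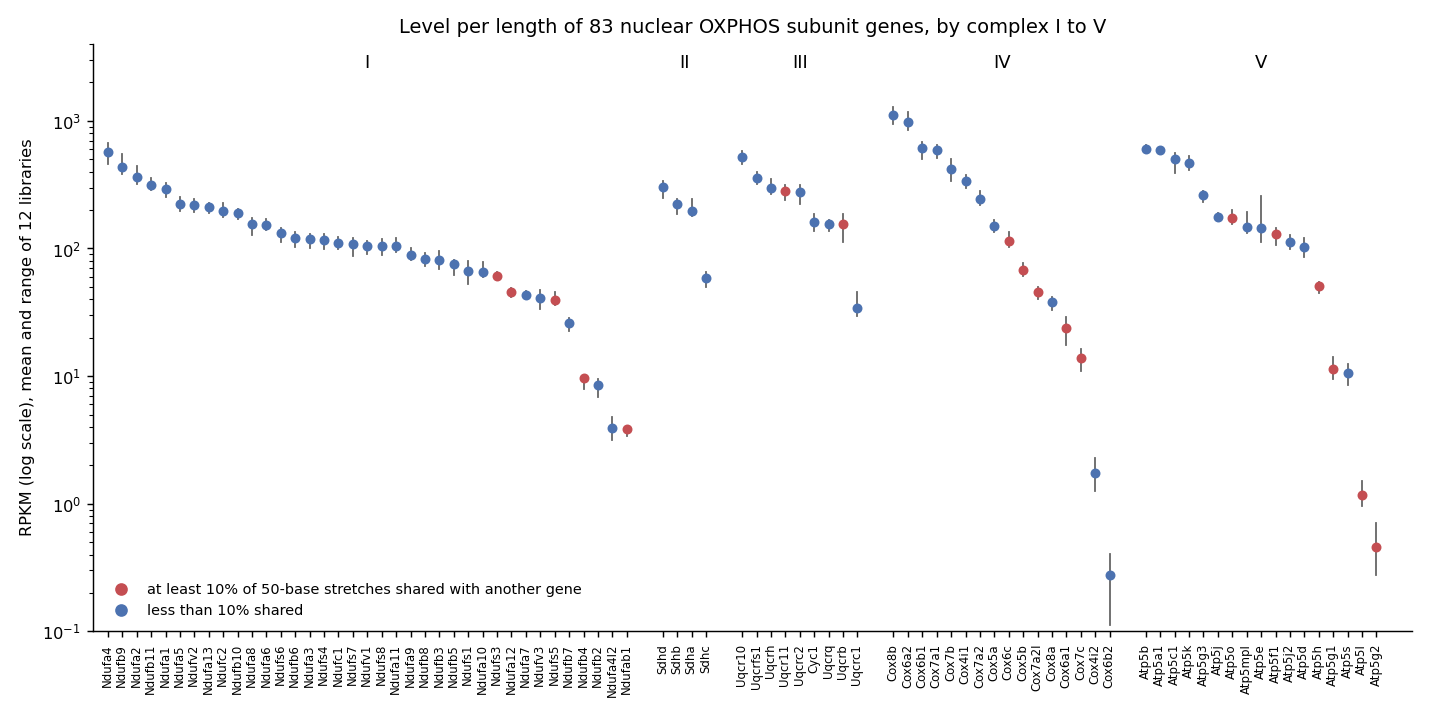
Level per length of 83 of the 84 tested genes in RPKM on a log scale, grouped by complex I to V. Points are means and lines the range of 12 libraries, and red points mark genes with at least 10% of 50-base stretches shared with another gene. Cox8b is highest at 1107 RPKM and Cox6b2 lowest at 0.274 RPKM.

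The members varied little between libraries. The median SD of log2 CPM over the 12 libraries was 0.111, against 0.117 in the 4254 genes of like level and 0.174 in all genes tested, and 78 of the 84 had an SD under 0.2. The steadiest were Atp5a1 and Ndufa7, with an SD of 0.064 and 0.065. The largest SDs were those of Cox6b2 (0.44), Atp5e (0.42) and Atp5g2 (0.35). Cox6b2 and Atp5g2 were counted at no more than 0.450 and 1.17 CPM in any library, whereas Atp5e was abundant.

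In complex I, the core subunits that carry the electron path were examined first. All values below are in CPM and in the order of replicates 1, 2 and 3. Ndufs1, which holds several iron-sulfur clusters of the peripheral arm, had 427, 523 and 581 in WT sedentary, 461, 581 and 613 in WT treadmill, 534, 547 and 541 in KO sedentary and 521, 537 and 641 in KO treadmill. Ndufv1, which binds NADH and FMN, had 286, 283 and 260.3 in WT sedentary, 264, 299 and 287 in WT treadmill, 283, 258 and 272 in KO sedentary and 240.1, 281 and 300.4 in KO treadmill. Its iron-sulfur partner Ndufv2 had 413, 472 and 503 in WT sedentary, 461, 503 and 497 in WT treadmill, 445, 480.1 and 453 in KO sedentary and 445, 525 and 469 in KO treadmill. Ndufs1 was lowest in both libraries of lanes 7 and 8, and no pair of groups was separated for these 3 genes.

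Ndufs7 carries the last iron-sulfur cluster before ubiquinone. It had 206, 193 and 180.4 in WT sedentary, 206, 196 and 186 in WT treadmill, 181, 175 and 177 in KO sedentary and 151, 201 and 166 in KO treadmill. It was highest in the libraries of lanes 7 and 8 and lowest in replicate 1 of KO treadmill. Ndufs3 had 125, 133 and 136 in WT sedentary, 132, 141 and 144 in WT treadmill, 125, 136 and 129 in KO sedentary and 123, 139 and 130.5 in KO treadmill. Ndufs8, another iron-sulfur subunit, had 115, 133 and 141 in WT sedentary, 127, 134 and 152 in WT treadmill, 131, 131 and 129 in KO sedentary and 127, 143 and 140.1 in KO treadmill. Ndufs3 and Ndufs8 overlapped between all groups, and 35.8% of the 50-base stretches of Ndufs3 are shared with other genes.

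Among the accessory subunits, Ndufab1 is the mitochondrial acyl carrier protein. It had 25.4, 26.5 and 27.7 in WT sedentary, 25.4, 26.9 and 28.1 in WT treadmill, 26.3, 27.2 and 24.5 in KO sedentary and 23.5, 27.95 and 27.5 in KO treadmill. Ndufa4, now assigned by many to complex IV, had 637, 787 and 858 in WT sedentary, 732, 914 and 805 in WT treadmill, 779, 760.1 and 793 in KO sedentary and 738, 920.2 and 750.3 in KO treadmill. Its paralog Ndufa4l2, known as a hypoxia-induced gene, had 5.24, 3.44 and 3.63 in WT sedentary, 3.696, 4.59 and 4.597 in WT treadmill, 5.14, 4.34 and 4.32 in KO sedentary and 3.82, 4.65 and 4.23 in KO treadmill. Per length the ratio of Ndufa4 to Ndufa4l2 averaged 148 ± 24.5 (SD, n = 12) and ran from 96.3 to 187.

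4 more accessory subunits were the complex I genes with the smallest p in one or another comparison. Ndufa8, a twin cysteine subunit of the intermembrane space, had 147, 139.99 and 133 in WT sedentary, 143, 150.3 and 139.7 in WT treadmill, 132, 127 and 134 in KO sedentary and 110.01, 139 and 117 in KO treadmill. All 3 KO treadmill libraries lay below all WT treadmill libraries. Ndufa11 of the membrane arm had 108, 114 and 111 in WT sedentary, 117, 117 and 132 in WT treadmill, 104, 108 and 111 in KO sedentary and 103, 118 and 114 in KO treadmill. The 3 WT treadmill libraries lay above the 3 WT sedentary ones. Ndufb7 had 119, 110.3 and 121 in WT sedentary, 120.5, 120.2 and 129.99 in WT treadmill, 122, 116 and 112 in KO sedentary and 103, 115 and 117 in KO treadmill. Its KO treadmill values lay below the WT treadmill values. Ndufv3 had 107, 126 and 136 in WT sedentary, 124, 129 and 151 in WT treadmill, 121, 128 and 131 in KO sedentary and 134, 139.6 and 143 in KO treadmill. Here all 3 KO treadmill libraries lay above the KO sedentary ones, the one gene of the 84 for which this was so (1.19%, where 5.75% of all genes did so), and in 0 did they lie below (6.76%).

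Complex II has 4 subunits, all nuclear, and is shared with the citric acid cycle. Sdha, the flavoprotein that oxidises succinate, had 746, 821 and 774 in WT sedentary, 739, 861 and 907 in WT treadmill, 805, 757 and 787 in KO sedentary and 789, 764 and 999.5 in KO treadmill. The iron-sulfur subunit Sdhb had 454, 482 and 526 in WT sedentary, 478, 533 and 544 in WT treadmill, 493, 506 and 488 in KO sedentary and 417, 545 and 483 in KO treadmill. The membrane anchors Sdhc and Sdhd follow. Sdhc had 213, 182 and 200.5 in WT sedentary, 207, 196 and 193 in WT treadmill, 190.2, 193 and 184 in KO sedentary and 162, 198 and 179.9 in KO treadmill. Sdhd had 303, 346 and 405 in WT sedentary, 344, 388 and 414 in WT treadmill, 361, 391 and 369 in KO sedentary and 369, 405 and 395 in KO treadmill. The groups overlapped for all 4 genes in each of the 4 pairwise comparisons. The highest Sdha value was in replicate 3 of KO treadmill, and the lowest Sdhb and Sdhc values in replicate 1 of that group.

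In complex III, Cyc1 and Uqcrfs1 are the cytochrome c1 and the Rieske iron-sulfur subunits, and Uqcrc1 and Uqcrc2 the core proteins. Cyc1 had 399.9, 339 and 351 in WT sedentary, 383, 357 and 364 in WT treadmill, 334, 346 and 338 in KO sedentary and 295, 342 and 326 in KO treadmill. Uqcrfs1 had 432, 458 and 517 in WT sedentary, 457, 530.4 and 541 in WT treadmill, 485, 482 and 473 in KO sedentary and 451, 499.9 and 513 in KO treadmill. The Cyc1 values of KO treadmill lay below those of WT treadmill, whereas those of Uqcrfs1 overlapped. For Uqcrc1 the same 2 groups were separated in the same way. Uqcrc1 had 189, 139 and 127 in WT sedentary, 166, 139 and 140.2 in WT treadmill, 136, 128 and 139 in KO sedentary and 122, 139 and 129 in KO treadmill. Uqcrc2 had 572, 677 and 769 in WT sedentary, 621, 764 and 799 in WT treadmill, 681, 722 and 709 in KO sedentary and 689.6, 723 and 787 in KO treadmill. The 2 core proteins went opposite ways in the libraries of lanes 7 and 8, Uqcrc1 above and Uqcrc2 below the other wild-type libraries.

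The smaller complex III subunits include the hinge protein Uqcrh, which helps to dock cytochrome c. It had 378, 337 and 387 in WT sedentary, 431, 384 and 373 in WT treadmill, 357, 373 and 365 in KO sedentary and 329, 398 and 335 in KO treadmill. Uqcr10 had 270.1, 293 and 332 in WT sedentary, 304, 337 and 329 in WT treadmill, 290.1, 298 and 297 in KO sedentary and 275, 323 and 289 in KO treadmill. Uqcr11 had 175, 175 and 189 in WT sedentary, 187, 196 and 202 in WT treadmill, 175, 172 and 177 in KO sedentary and 153, 195 and 176 in KO treadmill. For Uqcr10 and Uqcrh the group ranges overlapped, and the lowest Uqcr11 value was again in replicate 1 of KO treadmill. Uqcrb had 97.8, 135 and 148 in WT sedentary, 117, 142 and 139 in WT treadmill, 135, 144 and 146 in KO sedentary and 130.1, 162 and 141 in KO treadmill. It was lowest in the libraries of lanes 7 and 8, and 43.2% of its 50-base stretches are shared with other genes.

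Complex IV shows which isoforms the muscle used. Cox6a2, Cox7a1 and Cox8b are the forms known from heart and skeletal muscle, and Cox6a1, Cox7a2 and Cox8a those found in most tissues. Cox6a2 (chr7:128205435-128206387, minus strand; 10.3% of its exon bases overlap Itgad on the other strand) had 575, 614 and 636 in WT sedentary, 699, 687 and 798 in WT treadmill, 645, 646 and 632 in KO sedentary and 587, 772 and 707 in KO treadmill. Cox6a1 had 19.8, 14.2 and 16.3 in WT sedentary, 17.7, 16.7 and 16.4 in WT treadmill, 17.2, 19.6 and 16.4 in KO sedentary and 14.01, 20.2 and 12.3 in KO treadmill. Per length Cox6a2 exceeded Cox6a1 by a mean of 41.9 ± 7.50 times (SD, n = 12), from 29.99 to 59.4. The muscle form was the major one in all 12 libraries.

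Cox8b (chr7:140898945-140900446, minus strand) had 383, 400.2 and 414 in WT sedentary, 445, 459 and 421 in WT treadmill, 358, 381 and 378 in KO sedentary and 341, 449 and 354 in KO treadmill. The WT treadmill libraries lay above the WT sedentary ones and the KO sedentary libraries below them. Cox8a had 24.2, 21.6 and 25.9 in WT sedentary, 24.9, 25.2 and 25.2 in WT treadmill, 21.2, 25.4 and 22.4 in KO sedentary and 21.7, 24.7 and 20.3 in KO treadmill. The ratio per length averaged 29.1 ± 1.97 (SD, n = 12) and ran from 25.8 to 31.8. For the third pair, Cox7a1 had 317, 315 and 306 in WT sedentary, 319.9, 344 and 339.7 in WT treadmill, 318, 316 and 329 in KO sedentary and 271, 348 and 292 in KO treadmill. Cox7a2 had 213, 241 and 267 in WT sedentary, 232, 257 and 237 in WT treadmill, 218, 223 and 220.5 in KO sedentary and 208, 248 and 210.4 in KO treadmill. Here the ratio was 2.44 ± 0.171 (SD, n = 12), from 2.02 to 2.63, so both forms were abundant. With the longest transcript as the length it ran from 1.56 to 2.03. The Cox7a1 to Cox7a2 ratio of the KO sedentary libraries (2.51 to 2.63) lay above that of the KO treadmill libraries (2.30 to 2.47), a difference that was not tested. In the other pairwise comparisons the 3 ratios overlapped. No gene of the pairs passed the test.

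The promoters of Cox8b and Cox8a, the pair with the steadiest ratio, and of Cox6a1 are shown for comparison. Capitals mark motif letters. Neither Cox8 window holds any of the 3 motifs, whereas that of Cox6a1 holds the NRF1 letters at 2 places and the ETS letters once. The muscle form Cox6a2 is not shown.
Cox8b (chr7:140900447-140900696, minus strand): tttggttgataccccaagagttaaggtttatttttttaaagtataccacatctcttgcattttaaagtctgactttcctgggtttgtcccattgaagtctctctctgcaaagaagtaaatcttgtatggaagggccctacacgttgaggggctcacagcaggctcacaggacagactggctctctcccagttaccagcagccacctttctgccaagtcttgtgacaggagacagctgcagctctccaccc
Cox8a (chr19:7217617-7217866, minus strand): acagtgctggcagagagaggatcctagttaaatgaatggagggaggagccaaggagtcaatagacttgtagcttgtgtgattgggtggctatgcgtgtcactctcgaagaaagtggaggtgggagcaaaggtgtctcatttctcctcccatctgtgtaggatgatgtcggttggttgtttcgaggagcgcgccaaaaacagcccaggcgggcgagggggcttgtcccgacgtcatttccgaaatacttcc
Cox6a1 (chr5:115348959-115349208, minus strand): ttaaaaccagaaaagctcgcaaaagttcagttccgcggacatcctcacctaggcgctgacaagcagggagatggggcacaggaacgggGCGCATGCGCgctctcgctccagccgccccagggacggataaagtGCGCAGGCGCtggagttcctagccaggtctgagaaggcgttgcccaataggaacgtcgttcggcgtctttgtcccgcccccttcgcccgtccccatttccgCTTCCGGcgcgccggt

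The other isoform pairs were one-sided. Cox4i1, the common form of the subunit that carries regulatory sites, had 538, 545 and 502 in WT sedentary, 545, 585 and 556 in WT treadmill, 502, 517 and 510.5 in KO sedentary and 459, 538 and 473 in KO treadmill. Cox4i2, known from lung, had 1.47, 1.53 and 1.24 in WT sedentary, 1.200, 1.38 and 1.79 in WT treadmill, 1.598, 1.39 and 0.998 in KO sedentary and 1.09, 1.63 and 1.23 in KO treadmill. The ratio per length averaged 197 ± 30.1 (SD, n = 12), and 371 with the longest transcript as the length. Cox6b1 had 355, 400.1 and 462 in WT sedentary, 408, 452 and 479 in WT treadmill, 411, 434 and 447 in KO sedentary and 410.3, 468 and 441 in KO treadmill. Cox6b2, known from testis, had 0.4495, 0.124 and 0.214 in WT sedentary, 0.292, 0.247 and 0.213 in WT treadmill, 0.345, 0.318 and 0.406 in KO sedentary and 0.429, 0.181 and 0.423 in KO treadmill, a level at which most libraries held few counts. The testis forms Cox7b2 and Cox8c were at or near 0. The KO treadmill values of Cox4i1 and of Cox8a lay below those of WT treadmill.

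**Figure D2:**
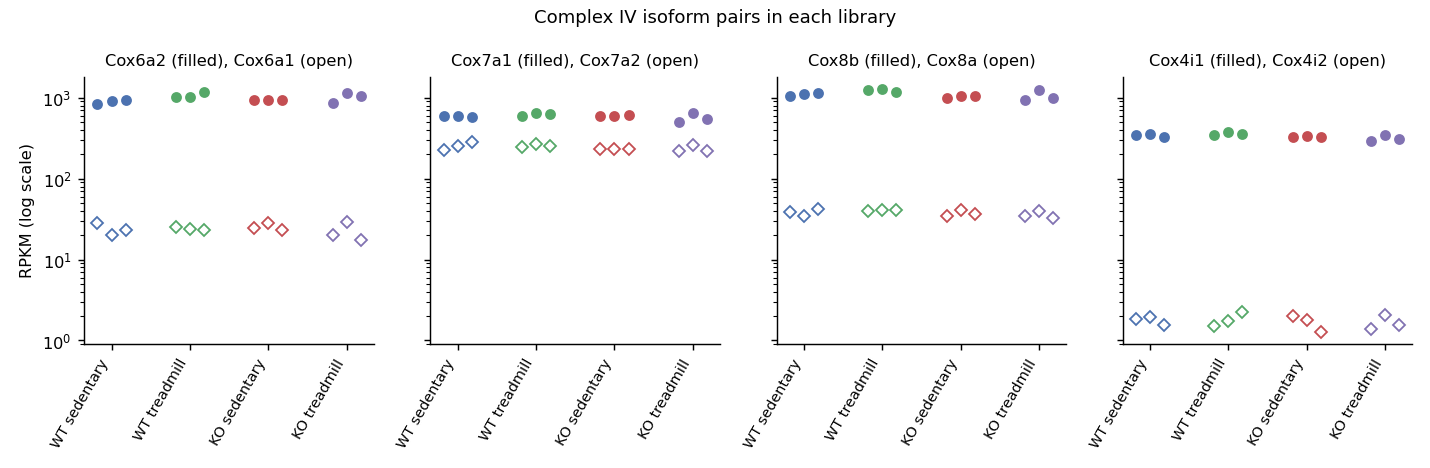
RPKM of 4 complex IV isoform pairs in each of 12 libraries on a log scale, with the muscle or common form filled and the other form open, by group. The ratio of Cox7a1 to Cox7a2 stays between 2.02 and 2.63, and that of Cox6a2 to Cox6a1 between 29.99 and 59.4.

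3 further complex IV genes complete the list. Cox5a had 315, 305 and 309 in WT sedentary, 312, 353 and 352 in WT treadmill, 313, 306 and 305 in KO sedentary and 285, 327 and 319 in KO treadmill. Cox5b had 98.1, 96.3 and 106 in WT sedentary, 106, 114 and 121 in WT treadmill, 107, 108 and 107 in KO sedentary and 99.6, 111 and 107 in KO treadmill. For Cox5b the 3 WT sedentary libraries lay below both the WT treadmill and the KO sedentary libraries, and 25.9% of its 50-base stretches are shared with other genes. Cox7a2l, which joins complexes III and IV into supercomplexes, had 59.4, 66.9 and 73.3 in WT sedentary, 64.6, 73.2 and 72.8 in WT treadmill, 64.8, 66.6 and 67.4 in KO sedentary and 63.7, 72.1 and 62.5 in KO treadmill. Its groups overlapped, as did those of Cox5a.

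In complex V, the catalytic head is made of the alpha subunit (Atp5a1) and the beta subunit (Atp5b), around a central stalk of gamma (Atp5c1), delta (Atp5d) and epsilon (Atp5e). Atp5a1 had 1957, 1833 and 1726 in WT sedentary, 1911, 1898 and 1966 in WT treadmill, 1818, 1828 and 1784 in KO sedentary and 1738, 1833 and 1944 in KO treadmill. Atp5b had 2590.3, 2503 and 2402 in WT sedentary, 2544, 2717 and 2712 in WT treadmill, 2523, 2529.7 and 2477 in KO sedentary and 2399.6, 2514 and 2752 in KO treadmill. These were among the steadiest of all genes here. Atp5c1 had 743, 963 and 996 in WT sedentary, 848, 1046 and 1045 in WT treadmill, 915, 979 and 911 in KO sedentary and 948, 1066 and 1026 in KO treadmill. It was lowest in both libraries of lanes 7 and 8.

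Atp5d (chr10:80138632-80145818, plus strand) had 231, 196 and 192 in WT sedentary, 222, 209 and 224 in WT treadmill, 190.03, 189 and 188 in KO sedentary and 165, 189.7 and 185 in KO treadmill. All 6 knockout libraries lay below all 6 wild-type libraries, and Atp5d was the one gene of the 84 for which this held. Atp5e (chr2:174461072-174464105, minus strand) had 436, 208 and 215 in WT sedentary, 453, 234 and 221 in WT treadmill, 208, 216 and 215 in KO sedentary and 197, 246 and 201 in KO treadmill. Its 2 values from lanes 7 and 8 stood above all others, by 1.02 on the log2 scale from the other wild-type libraries. Among the other 10 libraries Atp5e stayed between 197 and 246 CPM.

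The c-ring, through which protons pass, is encoded by 3 genes with the same mature protein. Atp5g3 had 572, 549 and 558 in WT sedentary, 552, 578 and 620.1 in WT treadmill, 552, 582 and 596 in KO sedentary and 505, 587 and 593 in KO treadmill. Atp5g1 had 63.02, 53.8 and 52.6 in WT sedentary, 69.5, 54.8 and 61.6 in WT treadmill, 48.4, 53.8 and 53.6 in KO sedentary and 46.6, 60.6 and 52.96 in KO treadmill. Atp5g2 had 0.629, 0.745 and 0.598 in WT sedentary, 0.746, 1.04 and 0.638 in WT treadmill, 0.8204, 0.915 and 0.924 in KO sedentary and 0.585, 1.17 and 0.462 in KO treadmill. Per length, Atp5g3 exceeded Atp5g1 by 23.2 ± 2.24 times (SD, n = 12). With the longest transcript as the length the mean was 56.3 times, from 43.4 to 62.3, so the size of the ratio depends on the length used. Of the 50-base stretches of Atp5g1 and Atp5g2, 11.6% and 11.1% are shared with other genes. The peripheral-stalk subunit Atp5o had 306, 323 and 325 in WT sedentary, 338, 352 and 394 in WT treadmill, 332, 350.03 and 326 in KO sedentary and 332, 351 and 368 in KO treadmill. WT sedentary was the lowest group for Atp5o, with all 3 libraries below those of WT treadmill and of KO sedentary. Atp5l had 9.53, 7.08 and 8.12 in WT sedentary, 9.76, 7.496 and 7.62 in WT treadmill, 6.39, 6.68 and 6.799 in KO sedentary and 6.71, 7.77 and 6.16 in KO treadmill. Its KO sedentary libraries lay below the WT sedentary ones, on counts that its shared sequence makes uncertain.

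**Figure D3:**
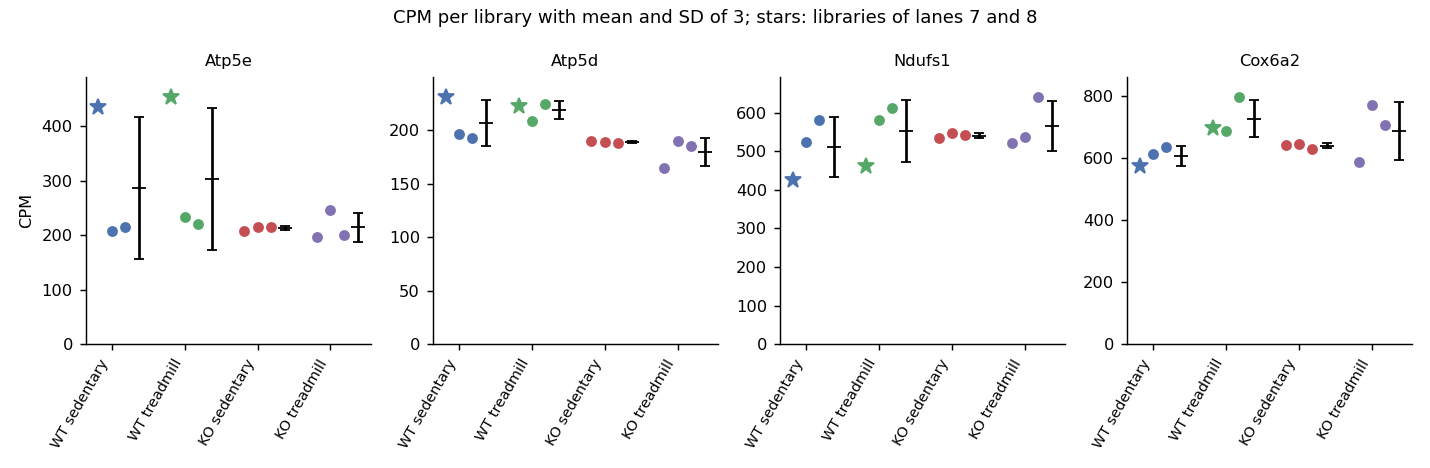
CPM of Atp5e, Atp5d, Ndufs1 and Cox6a2 in each library by group, with the mean and SD of 3 beside the points. Stars mark the wild-type libraries of lanes 7 and 8, which read 436 and 453 CPM for Atp5e, against 197 to 246 CPM in the other 10 libraries.

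Treadmill running in wild-type mice came with small upward differences in nearly all subunit genes, none of which passed the test. The log2 fold change was above 0 in 81 of 84 genes, with a median of 0.09 against 0.00 for all genes tested. The median was 0.08 in complex I, 0.09 in complex II, 0.11 in complex III, 0.09 in complex IV and 0.09 in complex V. With p-values of edgeR's quasi-likelihood test adjusted over all 14194 genes by Benjamini-Hochberg, 0 of 84 were called, where 0% of all genes were called. At an unadjusted p under 0.05 there were 3, or 3.57%, where 2.17% of all genes were, and DESeq2 also called 0 of 84 and 0% of all genes. These 3 were Cox6a2 (0.26, SE 0.098, adjusted p = 0.999), Cox5b (0.18, SE 0.074, adjusted p = 0.999) and Atp5o (0.18, SE 0.077, adjusted p = 0.999).

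In 11 of the 84 genes, or 13.1%, all 3 WT treadmill libraries lay above all 3 WT sedentary libraries, where 2.85% of all genes did so. They were Ndufa6, Ndufa7, Ndufa11, Ndufa13, Ndufb11, Uqcrq, Cox5b, Cox6a2, Cox7a1, Cox8b and Atp5o, so the muscle forms of all 3 complex IV pairs were among them. In 0 of 84 did they lie below, against 2.87% of all genes. The genes share libraries, and this count is not one of independent events. The 95% interval of the fold lay within 1.5-fold in either direction for 81 of the 84, the exceptions being Atp5e, Cox6b2 and Atp5g2. The median was 0.12 within lane 3 and 0.05 within lane 4, each with 1 library per group. Without the libraries of lanes 7 and 8 it was 0.09, with 75 of 84 genes above 0. Other lists differed between the same groups: all 7 slow fibre markers were below 0 (median -0.45; summed level 498 to 827 CPM in WT sedentary and 506 to 557 in WT treadmill), and all 6 tested erythroid markers were above 0 (median 0.62; 217 to 305 and 352 to 479 CPM). All 6 macrophage markers were below 0 (median -0.14; 153 to 261 and 128 to 323 CPM) and all 5 adipocyte markers above 0 (median 0.26; 219 to 316 and 304 to 337 CPM). Both tested cardiac markers were below 0 (median -0.59), and Myh2 was at -0.31. The part of these lists in the result was not tested. In whole muscle, fewer cells of a type and less RNA per cell cannot be told apart.

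In knockout mice the treadmill comparison showed no common direction. The log2 fold change was above 0 in 53 of 84 genes, with a median of 0.01 against -0.00 for all genes. Again 0 of 84 were called by edgeR, where 0% of all genes were, with 0 at an unadjusted p under 0.05, where 3.76% of all genes were, and DESeq2 called 0 of 84 and 0% of all genes. The gene with the smallest p was Ndufv3 (0.13, SE 0.094, adjusted p = 0.9999). The 3 KO treadmill libraries disagreed among themselves more than any other group. The mean log2 CPM over the 84 genes had an SD of 0.11 there, against 0.04 in WT sedentary, 0.04 in WT treadmill and 0.01 in KO sedentary. Without replicate 1 of KO treadmill the median became 0.06, and without replicate 2 it became -0.06. It was -0.10 within lane 3 and 0.05 within lane 4. Marker lists also differed between these 2 groups. All 6 tested erythroid markers (median -0.55) and all 6 macrophage markers (median -0.38) were below 0. All 9 fast fibre markers were above 0 (median 0.07). Both tested cardiac markers (median -0.71) and Myh2 (-0.39) were below 0. The part of these lists in the result was not tested.

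**Figure D4:**
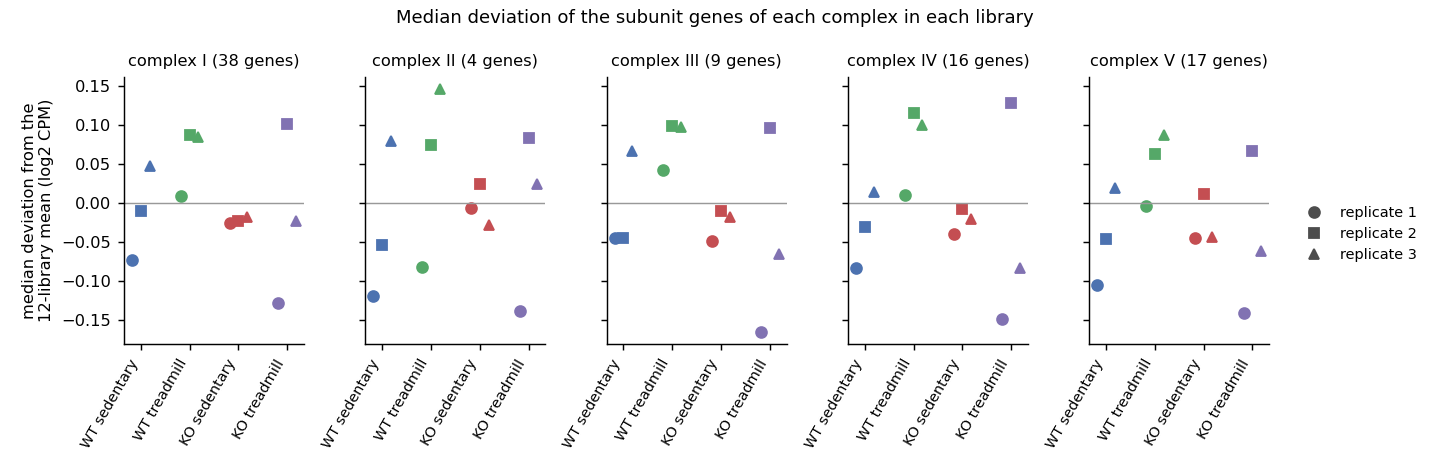
Median deviation of the tested genes of each complex from their 12-library mean, in log2 CPM, for each library by group, with replicates 1, 2 and 3 as circles, squares and triangles. In all 5 complexes replicate 1 of KO treadmill is the lowest library, at -0.13 in complex I and -0.17 in complex III, and replicate 2 of the same group is above 0.

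The comparison of genotypes without exercise showed no common direction. The median log2 fold change of KO sedentary against WT sedentary was -0.00 against 0.01 for all genes, with 42 of 84 above 0. The medians by complex ran from -0.01 in complex I to 0.02 in complex V. edgeR called 0 of 84, where 0.190% of all genes were called, with 1 at an unadjusted p under 0.05, or 1.19%, where 7.65% of all genes were. DESeq2 called 0 of 84, where it called 0.533% of all genes. The 1 gene was Atp5l (-0.32, SE 0.139, adjusted p = 0.618), at -0.20 without the libraries of lanes 7 and 8 (adjusted p = 0.674). Without them the median of the 84 genes was -0.03 against 0.00 for all genes, with 60 of 84 below 0. Intervals lay within 1.5-fold for 79 of 84 genes, and the exceptions were Cox4i2, Atp5e, Cox6b2, Atp5l and Atp5g2. All KO sedentary libraries were above all WT sedentary libraries in 3 genes and below them in 4, or 3.57% and 4.76%, where 6.47% and 5.48% of all genes did so. All 5 adipocyte markers were above 0 in this comparison (median 0.54), as were 5 of the 6 tested erythroid markers (median 0.54). Of the 7 slow fibre markers, 2 were above 0 (median -0.27). The part of these lists in the result was not tested.

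Among exercised mice the subunit genes stood lower in the knockout, again without a call. The log2 fold change of KO treadmill against WT treadmill was below 0 in 72 of 84 genes, with a median of -0.08 against 0.01 for all genes. The median was -0.08 in complex I, -0.04 in complex II, -0.13 in complex III, -0.11 in complex IV and -0.06 in complex V. edgeR called 0 of 84, where 0.162% of all genes were called, with 6 at an unadjusted p under 0.05, or 7.14%, where 6.72% of all genes were. DESeq2 called 0 of 84, where it called 0.368% of all genes. The 6 were Atp5d (-0.28, SE 0.083, adjusted p = 0.473), Ndufa8 (-0.24, SE 0.085, adjusted p = 0.582), Cox4i1 (-0.20), Cyc1 (-0.20), Ndufb3 (-0.23) and Cox8b (-0.21). All KO treadmill libraries were below all WT treadmill libraries in 10 genes, or 11.9%, and above them in 0, where 7.16% and 5.88% of all genes did so.

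The size of that difference rests on single KO treadmill libraries. Without replicate 1 of KO treadmill the median became -0.02, with 34 of 84 genes above 0. In that fit 1 gene was at an unadjusted p under 0.05, or 1.19%, where 4.93% of all genes were. Without replicate 2 the median became -0.16, with 28 genes at an unadjusted p under 0.05, or 33.3%, where 6.82% of all genes were. Without the libraries of lanes 7 and 8 it was -0.10, with 81 of 84 genes below 0. Within lane 3, where KO treadmill is replicate 1, the median was -0.22, and within lane 4 it was -0.07. With lane as a term in the fit it was -0.12, and edgeR called 0 of 84, where 0.726% of all genes were called. In the fit with lane, 20 of 84 were at an unadjusted p under 0.05, or 23.8%, where 11% of all genes were. All 6 tested erythroid markers were below 0 in this comparison (median -0.62; 200 to 371 CPM in KO treadmill), and all 7 slow fibre markers above 0 (median 0.16; 499 to 700 CPM). All 6 macrophage markers were below 0 (median -0.10; 152 to 223 CPM) and all 5 Schwann cell markers above 0 (median 0.27; 47.5 to 50.6 CPM, against 40.04 to 44.7 in WT treadmill). The part of these lists in the result was not tested.

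**Figure D5:**
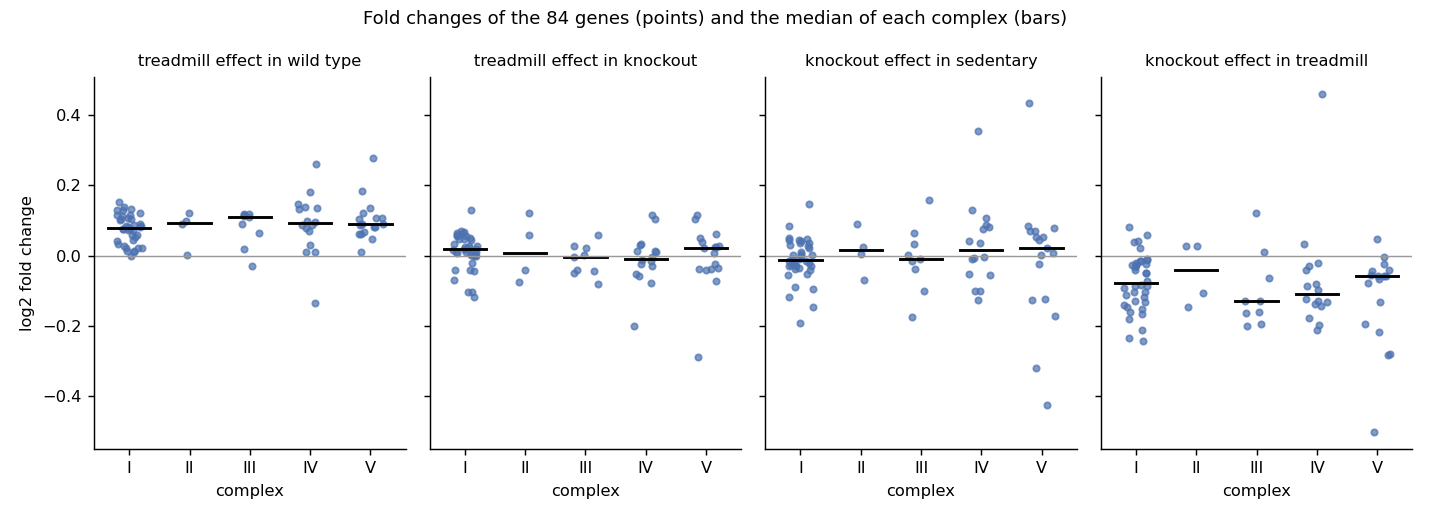
Log2 fold changes of the 84 genes, one point each, by complex in the 4 pairwise comparisons, with a bar at the median of each complex. In wild-type mice 81 of 84 points for the treadmill effect are above 0, and among exercised mice 72 of 84 points for the knockout effect are below 0, with no gene past the test in either.

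The genotypes could not be shown to differ in their response to the treadmill. The interaction, which is the treadmill effect in knockout minus that in wild type, was below 0 in 74 of 84 genes, with a median of -0.08 against -0.01 for all genes. edgeR called 0 of 84, where 0% of all genes were called, with 0 at an unadjusted p under 0.05, where 1.9% of all genes were, and DESeq2 called 0 of 84 and 0% of all genes. The smallest p was that of Cox5b (-0.20, SE 0.105, adjusted p = 0.9999). The median was -0.08 without the libraries of lanes 7 and 8, with 69 of 84 genes below 0. It was -0.03 without replicate 1 of KO treadmill, -0.23 within lane 3 and 0.01 within lane 4. Wild-type and knockout treadmill effects enter the interaction and the pairwise comparisons together, so these results share their libraries.

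Averaged over genotypes, the treadmill effect was above 0 in 74 of 84 genes, with a median of 0.04 against -0.00 for all genes. edgeR called 0 of 84, where 0% of all genes were called, with 2 at an unadjusted p under 0.05, or 2.38%, where 4.15% of all genes were, and DESeq2 called 0 of 84 and 0% of all genes. The 2 were Cox6a2 (0.18, SE 0.069, adjusted p = 0.971) and Atp5o (0.12, SE 0.054, adjusted p = 0.971). In the averaged comparison 83 of 84 intervals lay within 1.5-fold, all but that of Cox6b2.

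Averaged over exercise states, 57 of 84 genes were below 0 in the knockout, with a median of -0.03 against 0.01 for all genes. edgeR called 0 of 84, where 0.690% of all genes were called, with 12 at an unadjusted p under 0.05, or 14.3%, where 12.4% of all genes were. Without replicate 2 of KO treadmill there were 24, or 28.6%, where 11.7% of all genes were. Without replicate 1 of that group there were 3, or 3.57%, where 10.5% of all genes were. Without the libraries of lanes 7 and 8 there were 9, or 10.7%, where 13.5% of all genes were, and the median was -0.06 with 78 of 84 genes below 0.

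Of the 12, 5 were in complex V, and 4 of these 5 were higher in both libraries of lanes 7 and 8 than in the other wild-type libraries. The difference of Atp5l was -0.30 with those libraries and -0.17 without them, that of Atp5mpl -0.18 and -0.05, and that of Atp5g1 -0.17 and -0.08, and Atp5e is described further on. The fifth was Atp5d. It had the smallest p (-0.20, SE 0.059, adjusted p = 0.159), and DESeq2 called it (-0.21, adjusted p = 0.0487), the one call by DESeq2 among the 84 genes in any comparison, where it called 2.0% of all genes in this one. Its value was -0.15 without the libraries of lanes 7 and 8, with an adjusted p of 0.183. It was -0.19 in lane 3 alone and -0.15 in lane 4 alone. The 1.19% of the 84 genes with all 6 knockout libraries below all 6 wild-type libraries stood beside 1.30% of all genes, and 0 of 84 lay above, beside 0.486%. In sedentary mice alone, the Atp5d difference was -0.04 without those 2 libraries.

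The values of Atp5e rest on the libraries of lanes 7 and 8. Its averaged knockout effect was -0.46 (SE 0.196, adjusted p = 0.358) with all libraries, and -0.04 (SE 0.063, adjusted p = 0.862) without the libraries of lanes 7 and 8. Without the filter on low counts edgeR called it lower, at -0.48 averaged (adjusted p = 4.64e-10), -0.45 among sedentary mice (adjusted p = 0.000539) and -0.51 among exercised mice (adjusted p = 3.06e-05), the one member called in that fit. That fit called 2.15%, 1.23% and 0.786% of all genes in these comparisons. The 2 libraries lay above the 4 other wild-type libraries in 13 of the 84 genes, or 15.5%, and below them in 29, or 34.5%, where 18.0% and 19.5% of all genes did so. Those above included Atp5e (1.02), Cox6b2 (0.69), Uqcrc1 (0.38), Atp5mpl (0.37), Atp5l (0.35) and Ndufb9 (0.33). Those below included Atp5s (-0.43), Uqcrb (-0.40), Ndufb2 (-0.38) and Ndufs1 (-0.37). Both libraries are wild type, so what sets them apart enters every comparison of genotypes. The same libraries are replicate 1 of each wild-type group, so in the treadmill comparison they stand on both sides.

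Among other genes of the pathway 2 passed the test, both lower in the knockout. Of all 14194 genes tested, edgeR called 98 (0.690%) in the averaged comparison, 80 of them lower in the knockout. Among exercised mice it called 23 (0.162%), 22 of them lower. Of 43 tested assembly factors of the 5 complexes, edgeR called 1, Uqcc3, an assembly factor of complex III. Its CPM was 32.3, 29.5 and 30.6 in WT sedentary, 32.1, 30.4 and 31.1 in WT treadmill, 27.8, 26.2 and 26.3 in KO sedentary and 26.8, 25.3 and 25.2 in KO treadmill. Its averaged knockout effect was -0.24 (SE 0.050, adjusted p = 0.0455), and the call held in 6 of 19 alternatives. Atpaf1, an assembly factor of complex V that was picked out after its values were seen, was not called, at -0.35 (SE 0.084, adjusted p = 0.0763). Of 11 regulators of mitochondrial biogenesis, edgeR called Esrra, which encodes the estrogen-related receptor alpha, a nuclear receptor known to activate oxidative phosphorylation genes. Its CPM was 99.9, 90.5 and 94.8 in WT sedentary, 97.7, 93.9 and 92.8 in WT treadmill, 82.7, 82.8 and 81.00 in KO sedentary and 68.9, 77.4 and 71.97 in KO treadmill.

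All 6 knockout values of Esrra lay below all 6 wild-type values. The log2 fold change was -0.30 averaged over exercise states (SE 0.049, adjusted p = 0.00968), a call that held in all 19 alternatives run. It was -0.38 among exercised mice (SE 0.069, adjusted p = 0.0459), where 8 of 20 alternatives kept the call, and -0.21 among sedentary mice (SE 0.069, adjusted p = 0.452). Ppargc1a, the coactivator that works with this receptor, was not called (0.16, SE 0.098, adjusted p = 0.532). The difference in Esrra was larger than its spread between libraries, while 0 of the 84 subunit genes passed the same test.

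Of the 13 mitochondrially encoded mRNAs, 7 passed the filter and 0 were called in any comparison. Those that did not pass, mt-Atp6, mt-Atp8, mt-Co2, mt-Co3, mt-Nd3 and mt-Nd4l, had at most 0.0493 CPM in any library, where mt-Co1 had 41897.5 CPM or more. How reads of several genes were counted is not stated, so these values are not taken as levels of those mRNAs. All 7 tested mRNAs were above 0 for the treadmill effect in wild type (median 0.11) and in knockout (median 0.09). For the knockout effect among exercised mice, 5 of the 7 were above 0 (median 0.06), where 12 of the 84 nuclear genes were. The difference between the 2 lists was not tested. The summed level of the 13 mRNAs was 189520 CPM in replicate 1 of WT treadmill, which was alone on its lane. That lay below all KO treadmill libraries (215109 to 241675 CPM). The other WT treadmill libraries had 246584 and 233382 CPM, above and within that range. The value of 233382 CPM lay above those of KO treadmill replicates 1 and 3 (215109 and 231751 CPM). For the summed level, the upward direction in the knockout therefore rests on replicate 1 of WT treadmill. Fold changes of the 7 mRNAs without that library are not given here. Cycs, which encodes the cytochrome c that links complexes III and IV, was 0.12 higher on the log2 scale with the treadmill in wild type and 0.13 in knockout, with adjusted p-values of 0.999 and 0.9999.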

How the data were processed

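Libraries were made with a TruSeq RNA v2 kit, which does not mark strand. Per the submitters' processing notes, bcl2fastq 1.8.4, STAR 2.4.1d and featureCounts 1.4.6-p4 were used with build GRCm38. The deposited values used here are the authors' raw read counts per Ensembl gene; which annotation was counted, whether strand was used and what was done with reads of several genes is not stated in the labels or headers. The deposited RPKM table was not used, and RPKM values were computed from the counts and GENCODE M21 exon lengths.

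Genes passed edgeR's filter (10 counts scaled to library size, 15 in total), which left 14194 genes with 99.94% of the counts. TMM-scaled counts were fitted over all 12 libraries and 4 groups (residual df 8) with edgeR 4.0.16 quasi-likelihood tests in R 4.3.3, and p-values were Benjamini-Hochberg adjusted over all 14194 genes (called: adjusted p under 0.05). A log2 CPM has a prior count of 2. Alternatives were DESeq2 1.42.0, other scalings and filters, lane, the replicate block and leaving out each library. The fit was tested on simulated data. The members and lists were chosen with earlier results of these data known; the promoter windows shown, the 10% line for shared sequence, the 12 lowest genes, the SD line of 0.2 and the 1.5-fold line were chosen after values were seen. Named genes were the core subunits, isoform pairs and F1 and c-ring genes, the smallest p of each complex in each comparison, and the highest, lowest and most variable gene of each complex. A gene that this rule names is not reported here.

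Same-numbered libraries of the wild-type groups deviated together (correlations of 0.537, 0.301 and 0.259), which is also where their lanes pair. In the other pairs of groups at least 1 correlation was under 0.1.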

Additional observations from a re-analysis of the deposited data

How the results depend on the processing

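The count of subunit genes called was 0 in each of the 7 comparisons. Under other settings there was 1 count for each setting and comparison, since 1 fit serves several comparisons. It remained 0 in 134 of these 138 counts, among them all that left out 1 library (range 0 to 0 in every comparison). In 4 counts it was 1. Without the filter on low counts this was so for the knockout effect in sedentary mice (1, Atp5e), in exercised mice (1, Atp5e) and averaged (1, Atp5e). With DESeq2 it was so for the averaged knockout effect (1, Atp5d). The cause was not tested. With the replicate block the count was 0 in each comparison; it changed no call, also in the 6 wild-type libraries alone (0 of 83), where the numbers pair the libraries. The median treadmill effect in wild type was 0.09 with the replicate block.

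The median knockout effect in exercised mice ran from -0.16 without replicate 2 of KO treadmill to -0.02 without replicate 1, and the interaction from -0.15 to -0.03 without the same libraries. No result changed sign among those called. Uqcc3 lost its call in 13 of 19 alternatives and Esrra, in exercised mice, in 12 of 20; their direction stayed the same. With 3 libraries a group, an interval of the interaction lay within 1.5-fold for 78 of 84 genes, so smaller differences between genotypes in the treadmill response could not be resolved.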

Other observations

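Of the 86 subunit genes, 6 lie on chromosome 2 with Nfe2l2 (75675513 to 75704641, GRCm38). The nearest is Atp5g3, which encodes the c subunit of the ATP synthase ring, 1.76 Mb away, with an averaged knockout effect of -0.01 on the log2 scale (adjusted p = 0.982). Ndufs3 is 15.2 Mb away (-0.05, adjusted p = 0.726) and Ndufa8 39.6 Mb away (-0.17, adjusted p = 0.268). Atp5c1, Cox4i2 and Atp5e are 65.6, 77.0 and 98.8 Mb away. None passed edgeR's quasi-likelihood test in any of the 7 comparisons.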
